A study of Mus musculus with 2 samples.

Results

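A splice junction is the join left in an RNA when an intron is removed, seen as a sequencing read that runs from one exon into the next. The junctions described here are those that touch no annotated exon end: the authors' list marks them as unlisted in its annotation (A=0), and neither end of the intron abuts an exon end on the same strand among the genes of ENSEMBL 65. They also carry the authors' mark C=1, whose meaning is not given in the sources used here, and at least 10 reads in each of the 2 libraries. Since they were selected on these read counts, the counts are given below as a description, with no test. Of 1077149 junction records, 2781 met this rule. Both ends of the intron lay inside a same-strand gene for 650 of them, and the other 2131 lay partly or wholly outside such a gene.

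Livers of E18 embryos (embryonic day 18) of the strain C57BL/6J gave the poly(A)+ RNA that was sequenced. The study has 1 group with 2 libraries, numbered as biological replicates 1 and 2, so there is no contrast between conditions and no p-value. The labels describe littermates of both sexes pooled, RNA over 200 nt after removal of ribosomal RNA, added spike-ins and stranded libraries read from both ends, and they give both libraries the same donor identifier. Ratios below are replicate 1 over replicate 2.

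The spliceosome finds an intron by short signals at its ends, most often GT at the start and AG at the end, and joins the flanking exons. Reads across a join are placed on the genome as a pair of blocks with a gap, and where sequences repeat, a gap can have more than 1 possible position. In the fetal liver, hepatocytes secrete plasma proteins while red cells and granulocytes mature beside them, so a few genes hold a large part of the RNA.

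The list gave 124062302 reads of C=1 junctions in replicate 1 and 104013107 in replicate 2. Hepatocyte and red cell markers were high in both: Alb had 75300 and 75800 TPM, and Hbb-bs 76600 and 69800 TPM. All 4 pancreas acinar markers were higher in replicate 1, with Ctrb1 at 35.7 TPM in replicate 1 and 0.22 TPM in replicate 2. All 3 striated muscle markers were also higher in replicate 1, with Acta1 at 3.95 TPM in replicate 1 and 0.81 TPM in replicate 2. Both neutrophil markers were lower in replicate 1, with S100a8 at 3940 TPM in replicate 1 and 5620 TPM in replicate 2, and Ngp at 642 and 901 TPM. The libraries went against the label of pooled sexes: listed junctions of Xist, the RNA of the inactive X chromosome, had 8758 reads in replicate 1 and 1 in replicate 2, and those of chromosome Y had 39 and 13472. No member lay on chromosome Y, where replicate 1 had 39 reads over all listed junctions. Since the rule sets a read minimum in both libraries, this absence says little about unannotated junctions of Y. On X lay 76 members. Their median log2 ratio was -0.35, against -0.11 for the 2705 other members and -0.13 for the 32 on X outside the gene Firre. The part of sex or of acinar, muscle or neutrophil RNA in any ratio below was not tested. In whole liver, fewer cells of a type and less RNA per cell cannot be told apart.

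Many of the leading members are joins that a later annotation lists. An intron was matched to the later annotation GENCODE M21 by its chromosome, strand and length together with a neighbouring junction of matching length and distance, without converting coordinates. The joins below are shown because they are among the strongest members whose flanks lie in coding sequence or in a non-coding RNA. Each line gives 25 bases on either side of the join, read from GENCODE M21 transcripts (GRCm38), with the downstream exon in capitals.

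Rpl41: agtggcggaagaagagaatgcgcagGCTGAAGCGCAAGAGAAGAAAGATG
Snhg8: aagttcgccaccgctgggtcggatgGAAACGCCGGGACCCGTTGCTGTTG
Ndufb1-ps: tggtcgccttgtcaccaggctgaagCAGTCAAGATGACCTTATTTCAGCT
Nt5dc2: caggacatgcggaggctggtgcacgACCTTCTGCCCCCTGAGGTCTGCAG
BC024386: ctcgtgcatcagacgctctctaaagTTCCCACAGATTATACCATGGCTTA
Snhg6: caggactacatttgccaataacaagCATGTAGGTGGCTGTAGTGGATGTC
Snhg1: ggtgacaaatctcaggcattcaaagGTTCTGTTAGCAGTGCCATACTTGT

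In GRCm38 these introns lie at chr10:128548430-128548657 (-) for Rpl41, chr3:123507863-123508111 (-) for Snhg8, chr12:101969638-101975659 (-) for Ndufb1-ps and chr14:31131377-31134738 (+) for Nt5dc2. Those of BC024386, Snhg6 and Snhg1 lie at chr7:140907352-140907556 (+), chr1:9942392-9942609 (-) and chr19:8725047-8725221 (+). Coordinates below are of the build mm9, as the authors' list gives them, where GRCm38 is not named.

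A second set of joins is shown because the member is an annotated intron moved by a few bases. In Fetub, a protease inhibitor secreted by the liver, the member spans chr16:22929387-22929709 (+), while the annotated intron spans 22929383-22929705. Both ends had moved by 4 bases along the transcript. The lines below give the annotated join in GENCODE M21 coding sequence, with the first 4 bases of the downstream exon in capitals.

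Fetub: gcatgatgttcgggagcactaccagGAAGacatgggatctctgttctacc
Mttp: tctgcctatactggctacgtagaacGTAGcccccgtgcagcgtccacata
Mmp14: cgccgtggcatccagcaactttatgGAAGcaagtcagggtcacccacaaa
Uba2: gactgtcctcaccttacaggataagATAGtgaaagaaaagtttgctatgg
Nolc1: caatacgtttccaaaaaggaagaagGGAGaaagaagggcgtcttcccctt
Pde6c: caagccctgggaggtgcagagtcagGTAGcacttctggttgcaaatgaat

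The annotated introns lie in GRCm38 at chr16:22929310-22929632 (+) for Fetub, chr3:138104789-138104942 (-) for Mttp, chr14:54437763-54438664 (+) for Mmp14 and chr7:34146302-34147519 (-) for Uba2. Those of Nolc1 and Pde6c lie at chr19:46083627-46083750 (+) and chr19:38178322-38180005 (+).

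Of the 2781 members, 61 were such moved introns, all of them inside genes, in 59 genes. The move was 4 bases along the transcript in 55 of them and between 1 and 6 bases in all, with 58 moved later and 3 moved earlier. For 51 of the introns moved by 4 bases, the annotated join was found in GENCODE M21, and in 51 of these 51 introns the downstream exon had AG at bases 3 and 4. The first 4 exon bases took 16 different forms, of which GTAG was found 9 times, GAAG 8 times and GGAG 7 times. Among all 244772 exon starts after an intron in GENCODE M21, 5.85% have AG at these bases. After a move of 4 bases, bases 3 and 4 of the exon are the end of the moved intron itself, where most introns have AG. Whether the junction calling required AG there is not given in the sources used here, so the 5.85% is not a test of these members. The bases of the annotated intron were not analysed here, so whether the moved and the annotated join give the same RNA was not tested.

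Of the 10 members with most reads inside genes, 4 were moved introns. The 61 moved introns together held 18305 of 61367 reads in replicate 1 (29.8%) and 15238 of 54901 in replicate 2 (27.8%). For 53 of the 61 the annotated intron had no record in the junction list, and for the other 8 it had one. The member of Fetub had 4272 reads in replicate 1 and 3037 in replicate 2. It reached 59.3% and 60.9% of the highest listed junction of the gene. In Mttp, which loads fat onto lipoproteins, the member at chr3:137767749-137767902 (-) had 1362 and 1059 reads, or 69.9% and 71.1% of the highest listed junction. In Mmp14, a matrix protease of the cell membrane, 835 and 798 reads made 87.3% and 91.9%. Fkbp8, a prolyl isomerase of mitochondria, had 1493 and 1084 reads at an intron moved by 6 bases. Slc25a42, a mitochondrial carrier of coenzyme A, had 1335 and 844 reads. The median moved intron reached 43.8% of its host's highest listed junction in replicate 1 and 39.0% in replicate 2, against 4.94% and 5.5% for the other members inside genes. Apoa1, the main protein of high-density lipoprotein, differed, with 366 and 252 reads at the moved intron and 256742 and 235705 at the annotated one.

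**Figure D1:**
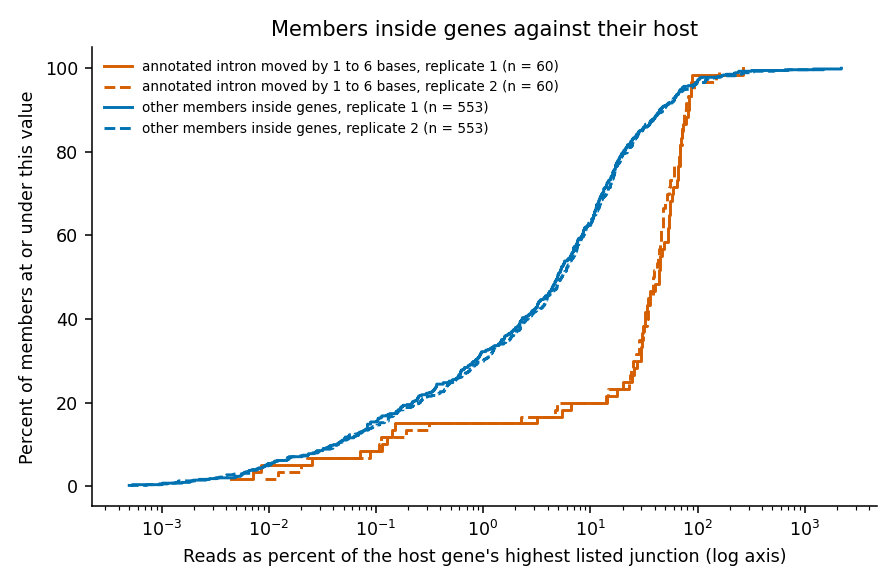
The plot shows, for members inside a same-strand gene whose host has a listed junction, the reads as a percent of the host's highest listed junction (x, log axis) against the percent of members at or under that value (y). The 60 moved introns (orange) lie to the right of the 553 other members (blue), with medians of 43.8% and 4.94% in replicate 1 (solid) and 39.0% and 5.5% in replicate 2 (dashed).

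By place, 1459 members (52.5%) had no gene at either end and 650 (23.4%) lay inside a same-strand gene. A further 228 had 1 end in a same-strand gene, 75 had their ends in 2 genes, 285 lay inside a gene of the opposite strand only and 84 had 1 or both ends in opposite-strand genes. All members together held 242045 reads in replicate 1 and 213768 in replicate 2. That was 0.195% and 0.206% of the reads of C=1 junctions (mean 0.2% ± 0.00737, SD, n = 2). The read sums by place were 61367 and 54901 inside genes, 122441 and 109486 with no gene at either end, and 26592 and 23062 with 1 end in a gene. Members with ends in 2 genes held 10564 and 8732 reads, and those only in opposite-strand genes 15924 and 13759. Most members had few reads. The median member had 29 reads in replicate 1 and 26 in replicate 2, and the median listed junction at the same minimum had 121 and 110. At the edge of the rule, 226 members had a lower count of exactly 10, with medians of 11 and 10 reads. Just outside it, 280 junctions had a lower count of 9, with medians of 11 and 9 reads.

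Of the 10 strongest members outside genes, 10 matched an intron of GENCODE M21. Rpl41, a very short protein of the large ribosomal subunit, held 4 members with no ENSEMBL 65 gene at either end. The strongest, chr10:127985486-127985713 (-), had 3079 reads in replicate 1 and 3425 in replicate 2, and the next had 1017 and 1178. The other 2, which begin at the same exon end, had 98 and 163 reads, and 42 and 56. In the gene tables of the newer build, Rpl41 had 1460 TPM in replicate 1 and 1980 TPM in replicate 2. Replicate 1 had fewer reads than replicate 2 at each of the 4 members.

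Several others are hosts of small nucleolar RNAs, which are cut from the introns of these non-coding RNAs and guide changes to ribosomal RNA. Snhg8 had 2959 and 3257 reads at chr3:123210781-123211029 (-), and Snhg6 had 1625 and 1907 at chr1:9932473-9932690 (-). Snhg6 is a gene whose identifier is not in ENSEMBL 65. It had 63.1 TPM in replicate 1 and 91.2 TPM in replicate 2. Snhg1 differed in place: its members lay within 1 exon of an unnamed ENSEMBL 65 gene (chr19:8797986-8800932, +). They had 1836 and 2079, 1786 and 1793, 1877 and 1582, 1154 and 1021, and 18 and 26 reads. The highest listed junction of that gene had 1874 reads in replicate 1 and 2116 in replicate 2, so 3 of these members were close to it in at least 1 library.

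Ndufb1-ps, a copy of a gene for a subunit of respiratory complex I that GENCODE M21 lists as non-coding, held the next pair of strong introns. They had 2317 and 2165 reads at 6022 bases and 2123 and 1785 reads at 1282 bases, so replicate 1, the deeper library, had more reads at both.

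Among coding genes, Gstp3, a glutathione transferase of the pi class, had 4796 and 3019 reads at chr19:4059295-4059423 (-), the highest count of any member in replicate 1. Elob, the elongin B subunit of ubiquitin ligases, had 3407 and 2938 reads, and Ly6c2, a surface protein of myeloid cells, had 2080 and 1969. These introns had 1 end in the ENSEMBL 65 gene and 1 beyond it. The same end of Ly6c2 was also joined over 127353 and 185692 bases, with 612 and 564 reads at the shorter of these introns and 601 and 563 at the longer. Car1, the red cell carbonic anhydrase, had 693 and 774 reads at an intron of 29893 bases, and Ighm, the heavy chain of immunoglobulin M, had 739 and 548. Nt5dc2, a protein with a nucleotidase domain, had 2070 and 2371 reads at chr14:31944563-31947924 (+) with no gene at either end. Inside genes, Ssr2, a subunit of the complex that receives proteins entering the endoplasmic reticulum, led with 4667 and 4523 reads at chr3:88383609-88383801 (+). This intron lay within 1 annotated exon and reached 59.9% and 72.6% of the highest listed junction of Ssr2.

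**Figure D2:**
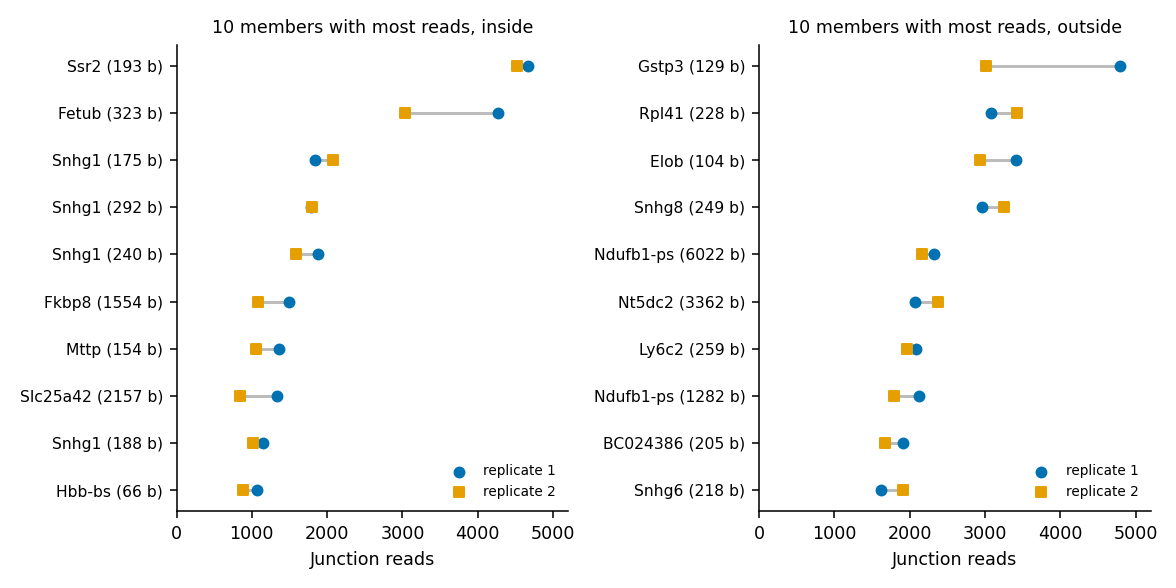
The plot gives the junction reads (x) in replicate 1 (circles) and replicate 2 (squares) for the 10 members with most reads inside and outside same-strand genes, with the intron length in brackets. Gstp3 has the widest gap in reads, 4796 in replicate 1 and 3019 in replicate 2.

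The members with no gene at either end formed 672 loci when introns at most 10000 bases apart were joined. A single member stood alone in 398 loci, and 70 loci held 5 or more. The nearest same-strand gene was within 5000 bases for 440 of the 1459 members and beyond 50000 bases for 353. The largest locus, chr7:148092007-148106693 (+), held 36 members with 11705 reads in replicate 1 and 9411 in replicate 2. Of these, 9 matched BC024386, a processed transcript in GENCODE M21, whose strongest intron had 1909 and 1670 reads. Unmatched introns of the locus ran on towards Nlrp6, with 2034 and 1462 reads at chr7:148103364-148105577 (+). That member ended 1223 bases upstream of Nlrp6, a sensor protein of innate immunity. The second locus held 21 members, 14 of them matched to Anxa11, which encodes a calcium-binding annexin. Loci of drug-metabolizing genes followed, with 17 members each, of which 6 matched pseudogenes of the Cyp2d family and 4 matched Cyp3a63-ps.

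Members that matched GENCODE M21 numbered 912 (32.8%) and fell in 457 genes, of which 219 had an identifier that was not in ENSEMBL 65. They held 49.9% of the members' reads in replicate 1 and 51.3% in replicate 2. By gene type, 487 of them matched protein-coding genes, 158 lincRNA genes, 111 processed transcripts and 31 antisense genes. Of the 319 genes with a TPM in the authors' gene tables, 258 had at least 1 TPM in both libraries, and the median was 4.58 TPM in replicate 1 and 5.51 in replicate 2. The same matching found 28.4% of unlisted junctions with 1 annotated end, 14.8% of those with 2, and 99.4% of listed junctions.

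Other tables of the series bear on the same introns, although they come from the same reads. A contig, which is a stretch of stranded read coverage, covered the exonic base at both ends of 2463 members (88.6%) and of 97.8% of listed junctions. Exon ends of the authors' assembled models abutted both ends of 1215 members (43.7%), against 83.7% of listed junctions. By place, the models reached both ends of 52.9% of the members with no gene at either end and 34.2% of those inside genes. Only 2 of the 75 with ends in 2 genes had this, and none of the 75 matched GENCODE M21. Of the 841 members with no gene at either end and no match, 421 (50.1%) still had models at both ends, against 351 of the 618 matched ones (56.8%).

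**Figure D3:**
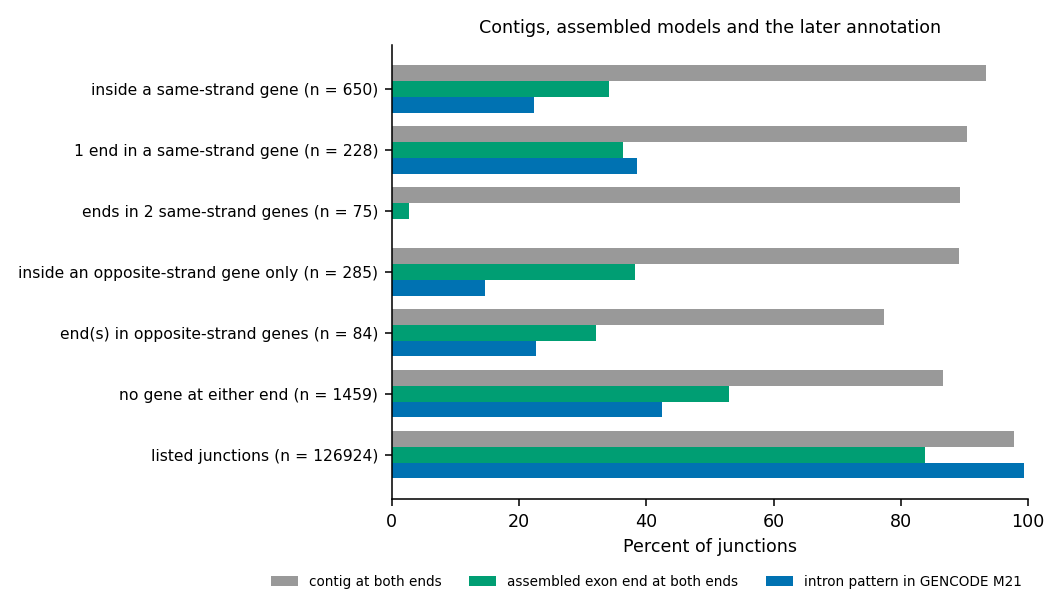
The bars give the percent of members with a same-strand contig at both ends (grey), an exon end of an assembled model at both ends (green) and an intron of the same pattern in GENCODE M21 (blue), by place, with listed junctions in the bottom row. Contigs cover 77.4% to 93.4% of members in every place, while the M21 share runs between 0% for ends in 2 genes and 42.4% for no gene at either end.

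Members often stood in chains. In all, 1724 (62.0%) shared an intron end with another member or had one within 500 bases before or after them on the same strand. The exons implied between 2 such introns had a median length of 118 bases over 758 exons, and 120 bases over 104624 exons between listed junctions. Exons under 30 bases made 2.37% of the exons between members and 0.52% of those between listed junctions.

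The densest host was Mgam, maltase-glucoamylase, an enzyme that digests starch in the intestine. It held 48 members, of which 44 each lay within an annotated intron and 4 jumped 36523 to 38086 bases over an annotated exon. Reads ran between 12 and 219 with a median of 46.5 in replicate 1, and between 12 and 137 with a median of 38.5 in replicate 2. The highest listed junction of Mgam had 210 and 208 reads. Assembled models reached both ends of 46 of the 48, and 19 matched Mgam introns of GENCODE M21. The gene had 3.2 TPM in replicate 1 and 3.14 TPM in replicate 2.

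Firre, a non-coding RNA of the X chromosome that stays in the nucleus and is known for a repeated RNA domain, held 44 members. The strongest, chrX:47938025-47945101 (-), had 587 reads in replicate 1 and 628 in replicate 2, while the highest listed junction had 244 and 204. The 44 introns used 21 start and 25 end positions, 40 of them shared an end with another member, and 17 matched GENCODE M21. The joins below show a repeated start of the downstream exons, in capitals.

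Firre join of the 7077-base intron: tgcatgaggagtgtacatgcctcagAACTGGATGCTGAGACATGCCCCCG
Firre join of the 1583-base intron: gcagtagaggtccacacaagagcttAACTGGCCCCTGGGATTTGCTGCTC
Firre join of the 3122-base intron: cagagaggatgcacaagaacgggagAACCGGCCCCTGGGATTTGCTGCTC
Firre join of the 2723-base intron: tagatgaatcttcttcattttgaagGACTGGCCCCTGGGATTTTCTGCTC
Firre join of the 2556-base intron: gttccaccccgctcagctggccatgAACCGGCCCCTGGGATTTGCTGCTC

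Of the 17 matched Firre joins, 5 had AACCGG, 4 had AACTGG and 3 had GACTGG as the first 6 bases of the downstream exon. Bases 7 to 18 read CCCCTGGGATTT in 9 of the 17. The 2723-base and 2932-base introns share a downstream exon, and so do the 2556-base and 2788-base introns. The counts out of 17 are therefore of joins and not of separate exons. The 5 introns printed above lie between positions 50567694 and 50591924 of chromosome X in GRCm38, on the minus strand. Their reads were 587 and 628, 409 and 364, 176 and 184, 108 and 106, and 87 and 99. The median log2 ratio of the 44 members was -0.4.

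Sos2, an exchange factor of the Ras pathway, held 11 members within 1 intron, between 42 and 147 bases long. Their median was 28 reads in replicate 1 and 26 in replicate 2. Mdga2, a surface protein of neurons with 0 TPM in replicate 1 and 0.01 TPM in replicate 2, held 7 members and no listed junction with a read. The strongest were 2 that share an end, each with 105 reads in replicate 1 and 70 in replicate 2.

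Of the 949 members that share an end with another, 84 had the same count as a member at that end in replicate 1, and also in replicate 2. Whether the authors counted the same reads at several positions is not given in the sources used here.

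The 75 members with ends in 2 genes lay mostly between copies of a gene. The Serpina1 genes, which encode alpha-1-antitrypsin, and the neighbouring Gm8893 gave 23 members with 4480 reads in replicate 1 and 4230 in replicate 2. Beta-globin genes gave 14, and alpha-globin genes with their relative Hbq1b gave 10. The strongest ran between Hbb-bt and Hbb-bs, the adult beta-globins, at chr7:110962087-110976096 (-), with 1446 and 1020 reads. Of the 13 members between this pair, 5 had a length of exactly 14010 bases, and all lay between 13767 and 14227. Cyp2d, Cyp2c, Cyp4a, lysozyme, H2-Q and histone copies gave 12 more. The median length of the 75 was 52006 bases, and 16 belonged to none of these families.

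**Figure D4:**
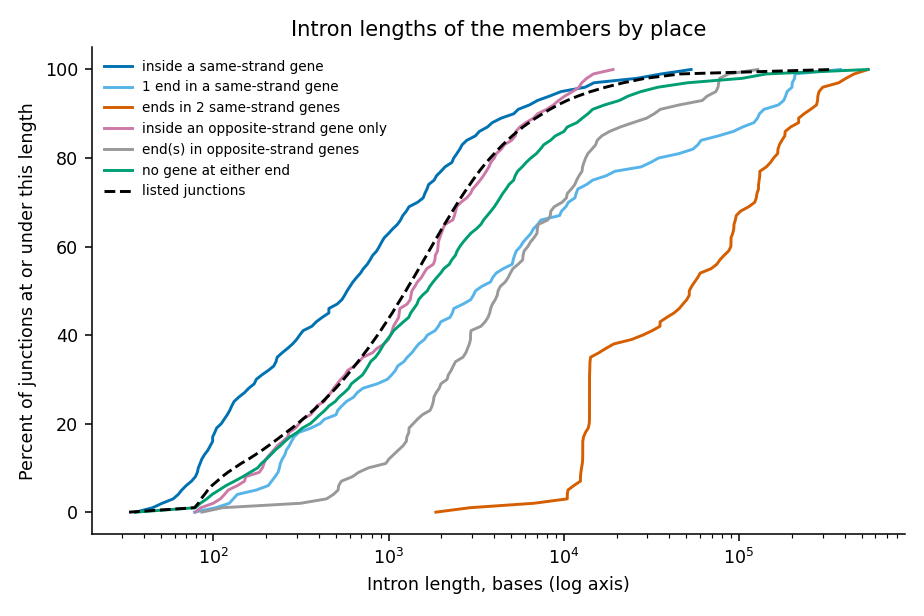
The lines give the percent of junctions (y) at or under an intron length (x, log axis) for members in each place and for listed junctions (dashed). Members inside genes have the shortest introns, with a median of 579.5 bases, and those with ends in 2 genes the longest, with 52006 bases and a step near 14010. An intron inside a gene cannot be longer than that gene, so place and length are not independent.

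The median intron of all members was 1446 bases, against 1254 for listed junctions. At the extremes, 134 members (4.82%) were longer than 50 kb and 44 (1.58%) shorter than 70 bases, against 0.877% and 0.0827% of listed junctions. The longest spanned 545359 bases at chr4:145915761-146461119 (-), with 21 reads in replicate 1 and 22 in replicate 2. The shortest were 36 bases, 1 of them inside an exon of the complement gene C3, with 12 and 11 reads. Of the 44 short members, 39 lay inside genes and 31 of these within 1 exon. With the host counted once for each member, the median highest listed junction of the host had 41088 and 30386 reads for these 39. For longer members inside genes it had 464 and 418.

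In the lists of secreted liver proteins and red cell genes, the median member was small beside its host. A member needs at least 10 reads in each library, so shares this low can be seen only in hosts with many reads. The 35 genes for secreted liver proteins hosted 44 members in 16 genes, with a median of 0.015% and 0.013% of the host's highest listed junction. Afp, the fetal plasma protein, held 8 and Alb, albumin, held 7. The strongest in Alb, at chr5:90899872-90901038 (+), had 711 reads in replicate 1 and 508 in replicate 2, beside 2623872 and 2065349 for the highest listed junction. Red cell genes hosted 15 in 7 genes, at medians of 0.00646% and 0.00896%, of which Hbb-bs and Hbb-bt held 5 each. The strongest, a 66-base intron of Hbb-bs, had 1065 and 878 reads.

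H19, an imprinted non-coding RNA of fetal liver, held 8 members between 39 and 207 bases, and Igf2, the growth factor imprinted beside it, held 2. They made 10 members for the list of imprinted and non-coding hosts. Splicing regulators hosted 3, in Hnrnpa2b1, Srsf2 and Tra2a. Neutrophil genes hosted 0, and so did the list of small nucleolar RNA hosts, of which 7 of 14 symbols had a span in ENSEMBL 65. The Snhg1 members lay in the unnamed gene and are not counted there.

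Over all 613 members inside a gene that has a listed junction, the median member reached 5.71% of the host's highest listed junction in replicate 1 and 6.33% in replicate 2. It was at least 10% in both libraries for 236 of them, above the host's highest junction in both for 15, and under 1% in both for 172. The minimum of 10 reads sets the lowest share that can be seen in a host, which is higher where the host has fewer reads. These counts therefore depend on the reads of the hosts. By position, 246 of the 650 lay within 1 exon and 212 within 1 intron. A further 141 ran between an exon body and an intron, 41 between 2 exon bodies and 10 between introns over an exon.

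On the opposite strand of an annotated gene lay 285 members in 183 such genes or gene groups. None had the position of a listed junction on that other strand. The strongest by summed reads lay opposite Cep85, a centrosome protein, with 719 reads in replicate 1 and 670 in replicate 2. Cfi, the complement regulator factor I, had 738 and 623 reads opposite it. Of the 285, 42 matched GENCODE M21, 15 of them in antisense genes such as Tmem147os, which had 343 and 274 reads at its strongest intron.

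Between the libraries, the members' median log2 ratio was -0.11 after scaling by the reads of listed junctions, and that of listed junctions was -0.09. Scaled by the median listed junction the members' value was -0.02, and without scaling 0.14, so its sign depends on the scaling. Beyond 2-fold were 228 of 2781 members (8.2%), 92 higher in replicate 1 and 136 higher in replicate 2. The minimum of 10 reads acts on unscaled counts and replicate 1 is deeper. Near the minimum, a member therefore needs fewer reads to be called higher in replicate 2 than in replicate 1. The part of this in the split was not tested. The background was 3.17% of all 138462 C=1 junctions with the same minimum, with 1.16% higher in replicate 1 and 2.01% higher in replicate 2. Among listed junctions it was 2.74%, with 0.987% and 1.75% in these directions. Members have fewer reads, and at 20 to 49 summed reads the shares were 9.61% of members and 8.78% of listed junctions. At 50 to 99 reads they were 10.6% and 6.66%, and between 100 and 200 reads 5.22% and 2.08%. Among members with 500 or more reads, 1.25% were beyond 2-fold, against 0.494% of listed junctions.

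At a mean of at least 50 reads, 28 of 777 members (3.6%) were beyond 2-fold, 14 in each direction. The background at that mean was 1.07% of all 95874 C=1 junctions, with 0.532% higher in replicate 1 and 0.535% higher in replicate 2. Among listed junctions it was 0.956%, with 0.458% higher in replicate 1 and 0.498% higher in replicate 2. The highest ratio was at Tmem267, a membrane protein, with 132 reads in replicate 1 and 19 in replicate 2 at chr13:120277802-120281440 (+). The gene had 2.79 TPM in replicate 1 and 0.67 TPM in replicate 2. The lincRNA 1810008I18Rik had 2303 and 727 reads at chr7:72949219-72950699 (+), a log2 ratio of 1.42, and 67.9 and 26.5 TPM. A member between Hba-a1 and Hbq1b had 83 and 21 reads, one opposite Fbxo16 81 and 22, and one between Hbb-bt and Hbb-bs 86 and 29. In the other direction, an unmatched intron at chr1:10305421-10306030 (+), far from any same-strand gene, had 18 reads in replicate 1 and 86 in replicate 2, a log2 ratio of -2.5. Each of these differences is 1 library against 1, with no replicate check.

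**Figure D5:**
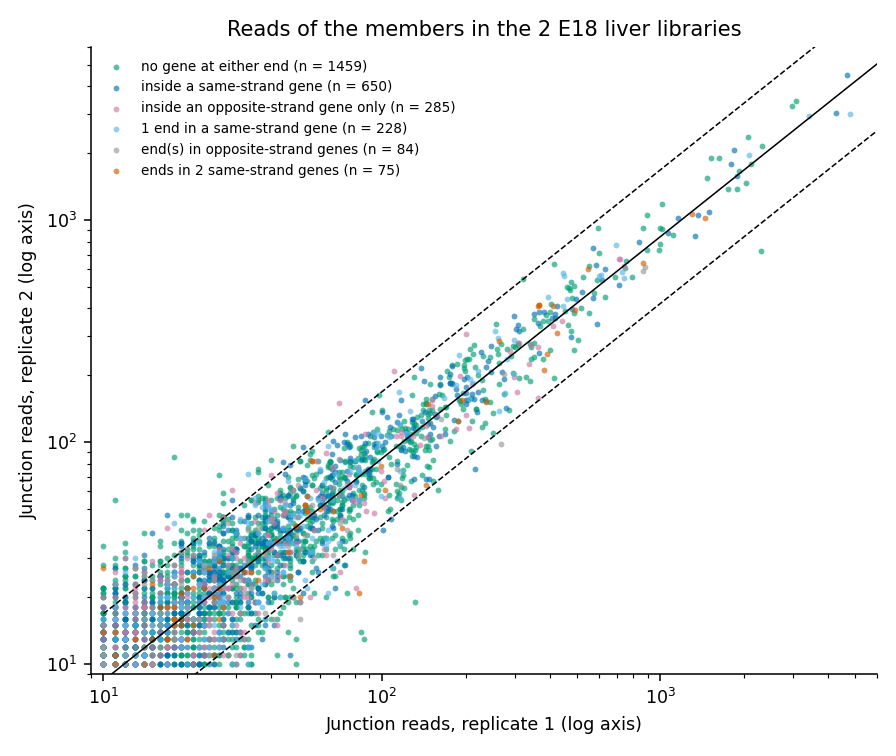
Each point is a member, by its junction reads in replicate 1 (x) and replicate 2 (y), both log axes, coloured by place; the solid line is the ratio of listed reads and the dashed lines are 2-fold from it. Of the 228 points outside the dashed lines, 28 have a mean of at least 50 reads. Among them is 1810008I18Rik, with 2303 reads in replicate 1 and 727 in replicate 2.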

How the data were processed

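Poly(A)+ RNA-seq libraries of E18 mouse liver gave 2 samples, replicates 1 and 2 of 1 group. The junction list (mm9) was made by the authors from both libraries and holds whole-number read counts R1 and R2. It also holds the authors' score between 0 and 1. R1 and R2 were read as replicates 1 and 2. The contigs hold a signal level over both libraries, per the labels, with no scale stated. Exon tables list ENSEMBL 65 and Cufflinks models, per the file headers. Gene tables (mm10, GENCODE M4), as deposited by the authors, hold expected counts and TPM. TPM is scaled by transcript length and to 1 fixed total, and rows of no mouse gene held 2.83% and 2.13% of expected counts. The sources used here name neither aligner nor junction caller.

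Python 3.11.15 with numpy 2.4.6, pandas 2.3.3 and matplotlib 3.10.9 was used. An intron runs over the bases between the exon ends. Ratios were scaled by the reads of listed C=1 junctions (115445503 in replicate 1, 97243926 in replicate 2). Introns were matched to GENCODE M21 by length plus at least 1 neighbouring junction of at least 20 summed reads within 100 kb. A moved intron equals an annotated one after a shift of at most 10 bases at both ends. The placing of introns, the ratios and the chains were tested on simulated data; the matching and the shift were not. Members and gene lists were chosen with earlier results of these data known. Named junctions were the 10 strongest inside and outside genes, the 5 highest and lowest ratios at a mean of at least 50 reads, the 5 longest and shortest, and the densest loci; others named were chosen after their values were seen. Read counts cover counting error only, and the minimum of 10 reads limits precision. Some items that the naming rule picks are not reported here.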

Additional observations from a re-analysis of the deposited data

How the results depend on the processing

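Of 55 alternatives over 10 results, 44 left the value close to the one reported (a log2 ratio within 0.1, any other value within 1.5 times) and 11 did not. A minimum of 5 reads in both libraries gave 4984 members and 1179 inside a same-strand gene, a minimum of 20 gave 1577 and 379, and a minimum of 50 gave 675 and 171. The median log2 ratio, -0.11, was 0.14 with no scaling. The 228 members beyond 2-fold became 111 with 5 added to each count, 66 at a minimum of 20 and 10 at a minimum of 50. The median share of the host, 6.02% over both libraries, was 14% when set against the median listed junction of the gene in place of the highest. Fewer junctions pass a higher minimum, leaving out the scaling adds the same constant to every log2 ratio, and adding 5 narrows the ratio between low counts. Beyond this, the cause was not tested for any of these.

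Leaving out 1 replicate, members numbered 3476 to 3992 and those inside genes 817 to 945, since the minimum then holds in 1 library. The read share and the host share were instead taken from the main set of 2781 members, read in 1 library at a time. They were 0.195% to 0.206% and 5.71% to 6.33%. In the larger sets the median intron was 1417.5 to 1523.5 bases. Models reached 1425 to 1555 members, contigs 3092 to 3521, and shared ends or chains 2117 to 2497. The replicate alternatives for read share, models, contigs, chains and host share were chosen after seeing the data. Leaving out the moved introns gave 2720 members, 589 of them inside genes. No paired analysis was possible because the series has 1 group. Low counts limit all ratios of single members.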
